A study of Homo sapiens with 6 samples.

Results

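The 10 genes described here encode sensors of RNA and DNA and the adaptors that pass their signal on: RIGI, IFIH1, DHX58, TLR3, ZBP1, CGAS, STING1, MAVS, TBK1 and IRF3. They were chosen by name, as 10 of the 19937 genes in the count table, and all 10 were found there by Ensembl identifier. The choice, like that of the lists below, was made with earlier results of these data known. Their shares of calls beside those of all genes are therefore descriptions only. The cells were U2OS, an established human osteosarcoma line, and RNA was captured by its poly(A) tail and sequenced in 6 libraries. In shSQLE (3 libraries) the cells stably carried a pGIPZ lentiviral hairpin against squalene epoxidase (SQLE), an enzyme of cholesterol synthesis, and in shControl (3 libraries) they carried a scrambled hairpin in the same vector. Both populations had gone through lentiviral infection and puromycin selection, and no uninfected cells were compared. No label ties a library to a culture of its own, so SDs and p-values describe the spread between these libraries, which may be technical.

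Cells read foreign or misplaced nucleic acid through a small set of receptors. RIG-I (RIGI) and MDA5 (IFIH1) bind viral or self double-stranded RNA in the cytosol, LGP2 (DHX58) modulates them, and both sensors signal through MAVS on the mitochondrial surface. TLR3 reads double-stranded RNA in endosomes, cGAS (CGAS) reads cytosolic DNA and signals through STING (STING1), and ZBP1 reads Z-form nucleic acid and can start cell death. MAVS, STING and TLR3 signalling meet at the kinase TBK1, which activates the transcription factor IRF3 and so the interferon genes. Interferon in turn raises the transcription of several sensors, and the 10 genes were therefore divided by textbook knowledge into 6 interferon-inducible sensors (RIGI, IFIH1, DHX58, TLR3, ZBP1, CGAS) and 4 constitutive adaptors (MAVS, STING1, TBK1, IRF3). The division is not sharp for CGAS and STING1, which interferon induces in some cells.

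The sequences before the starts of IFIH1 and RIGI are shown because both are RNA sensors of the RIG-I family and were lower in shSQLE. They differ in exact matches to a motif through which interferon acts. The interferon-stimulated response element (ISRE) was searched as GAAANNGAAA on both strands, and the gamma-activated site (GAS) as TTCNNNGAA, within 250 bases before to 50 after each start in RefSeq (GRCh38.p14). Of the 10 genes, RIGI, IFIH1, TLR3, MAVS and TBK1 matched an entry. The 180 bases before each start are printed 5′ to 3′ in the direction of the gene, with ISRE matches in capitals. The IFIH1 stretch is chr2:162318685-162318864 and the RIGI stretch chr9:32526197-32526376, both on the minus strand.
IFIH1: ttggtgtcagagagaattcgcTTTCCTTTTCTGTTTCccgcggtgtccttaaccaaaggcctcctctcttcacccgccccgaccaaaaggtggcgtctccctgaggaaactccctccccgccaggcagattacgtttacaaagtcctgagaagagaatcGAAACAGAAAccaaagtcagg
RIGI: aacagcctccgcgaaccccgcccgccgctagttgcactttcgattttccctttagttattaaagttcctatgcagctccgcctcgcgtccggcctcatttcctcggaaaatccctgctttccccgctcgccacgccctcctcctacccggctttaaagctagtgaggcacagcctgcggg

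IFIH1 held 3 ISRE matches, at -159 to -150 and -153 to -144 on the opposite strand, which overlap each other, and at -21 to -12 on its own strand, counted from the first transcribed base as 0. RIGI held 0 ISRE and 0 GAS matches in this window. TLR3 held 1 ISRE match on the opposite strand, from -4 to 5, and 2 GAS matches, at -178 to -170 and -50 to -42. MAVS and TBK1 held 0 of either. Among all 35116 promoters of the same length, 3.57% held the ISRE letters and 7.66% the GAS letters, and among those of the genes tested 2.72% and 6.12%. A match is a run of letters and not a site shown to be bound. Only these exact letters were searched, so a promoter with no match may still hold a variant of the motif.

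Library totals ranged from 12212378 to 14393292 counts, and mitochondrial genes took 5.76% to 7.74% of them. The normalized count of SQLE (counts rescaled to one common effective library size) was 1349, 1867 and 1924 in the shControl libraries, against 229, 204 and 219 in the silenced ones, with a log2 fold change of -2.98 (SE 0.17, adjusted p = 0.000299). shControl replicate 1 stood apart from the other controls: its counts differed from theirs by 53.9 and 63.8 times what counting noise alone would give (chi-square over its degrees of freedom), where replicates 2 and 3 differed by 2.83 times. From shSQLE replicates 1, 2 and 3 it differed by 32.2, 26.6 and 54.3 times. It thus lay nearer to shSQLE replicates 1 and 2 than to the other controls. In shSQLE, replicate 3 differed from replicates 1 and 2 by 9.84 and 15.9 times, and replicates 1 and 2 differed by 3.4 times. Without shControl replicate 1, 33.9% of the genes tested were called, so a call gained in that fit is to be read against this share. Of the mesenchymal and osteoblast markers, VIM and SPARC were abundant in each library (at least 36305 and 5000 counts), while COL1A2 had at most 6 and ALPL at most 2 counts, and the 6 markers summed to 42360 to 49190 normalized counts in shControl and 45180 to 50880 in shSQLE, most of it VIM. Of the 4 of them tested, 3 had a lower and 1 a higher value in shSQLE. COL1A1 was lower, at 164 ± 6.64 against 104 ± 4.13 normalized counts (log2 fold change -0.65, adjusted p = 0.0452), a call that held without shControl replicate 1 (0.00527) and was lost without any other library (0.131 to 0.253), and RUNX2 was at -0.29 (adjusted p = 0.516). The summed leukocyte markers came to 12.7 to 15.7 normalized counts in shControl and 3.08 to 4.93 in shSQLE, with PTPRC and CD3E at 0 in all libraries and ITGAM at 7, 9 and 11 against 1, 0 and 2 counts. The endothelial markers, mostly PECAM1, summed to 12.7 to 15.7 and 2.06 to 6.90, and the epithelial markers to 52.5 to 55.4 and 58.6 to 74.4. The part of these markers in the results was not tested.

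The 3 RNA sensors of the RIG-I family were all lower in shSQLE, with no overlap between the groups and past the adjusted p, where 2.84% of all genes tested were lower past it and 12.1% were lower without overlap. RIGI and DHX58 passed the filter on low counts only with shControl, where they were high, so their calls are no independent support. Of the 3, only IFIH1 had at least 10 counts in every library. With that stricter filter it was called in the edgeR quasi-likelihood test (adjusted p = 0.0107). IFIH1 fell to 34.1% of its shControl mean, RIGI to 22.8% and DHX58 to 11.3%. Fewer cells expressing a gene and less RNA per cell cannot be told apart in such bulk libraries. IFIH1, the sensor of long double-stranded RNA (ENSG00000115267, chromosome 2, 162267074 to 162318684 of hg38, minus strand, 16 exons), had normalized counts of 126, 186 and 198 in shControl. The shSQLE libraries had 59.7, 62.1 and 52.4. The lowest control library thus lay above every shSQLE library, and the shSQLE libraries lay close together. The means were 170 ± 38.8 and 58.1 ± 5.04 (SD, n = 3 each), and the log2 fold change was -1.55 (SE 0.21, 95% interval -2.04 to -1.06, adjusted p = 0.00900 from the edgeR quasi-likelihood test). The call was lost without shSQLE replicate 1, 2 or 3 (adjusted p = 0.0663, 0.0543 and 0.0733), while the log2 fold change stayed between -1.72 and -1.42 when single libraries were left out.

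RIGI, the sensor of short double-stranded RNA with 5′ triphosphate ends (ENSG00000107201, chromosome 9, 32455302 to 32526208, minus strand, 18 exons), had low counts in both groups. Whether its RNA was rare cannot be told from them, because a readthrough gene shares most of its canonical transcript. The shControl replicates gave raw counts of 24, 46 and 59 and the shSQLE replicates 13, 5 and 11. Normalized, these were 27.7, 41.6 and 57.9 against 12.7, 4.93 and 11.3. The groups did not overlap, but the controls spread over a wide range and the lowest control was replicate 1. The means were 42.4 ± 15.1 and 9.65 ± 4.16 (SD, n = 3 each), with a log2 fold change of -2.13 (SE 0.41, 95% interval -3.08 to -1.19, adjusted p = 0.0335). From the summed counts, 129 against 29, the shSQLE level was 22.3% of the shControl level, with an exact 95% interval of 14.4% to 33.6% that covers counting error only. When single libraries were left out, the call held in 1 fit of 6, without shControl replicate 1 (log2 fold change -2.35, adjusted p = 0.000500). It was lost without shControl replicate 2 or 3 (adjusted p = 0.102 and 0.0959) and without shSQLE replicate 1, 2 or 3 (adjusted p = 0.114, 0.134 and 0.151), with log2 fold changes between -2.38 and -1.81.

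The counts of RIGI are also bounded by a neighbour. A readthrough gene on the same strand (ENSG00000288684, 20 exons) shares 4471 of the 4628 nt of the canonical RIGI transcript (96.6%). This leaves 157 nt of that transcript to RIGI alone, 136 as its whole first exon and 21 in its last. Other annotated RIGI transcripts add exons, and all exons of RIGI together cover 10345 nt. That gene had 0, 1 and 0 counts in shControl and 3, 0 and 0 in shSQLE. Few if any of the reads counted for RIGI were thus also counted for that gene. Whether reads that fit both genes were left out or given to RIGI alone is not stated in the sources used here. The effect of this on the level and the fold change of RIGI was not tested.

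**Figure D1:**
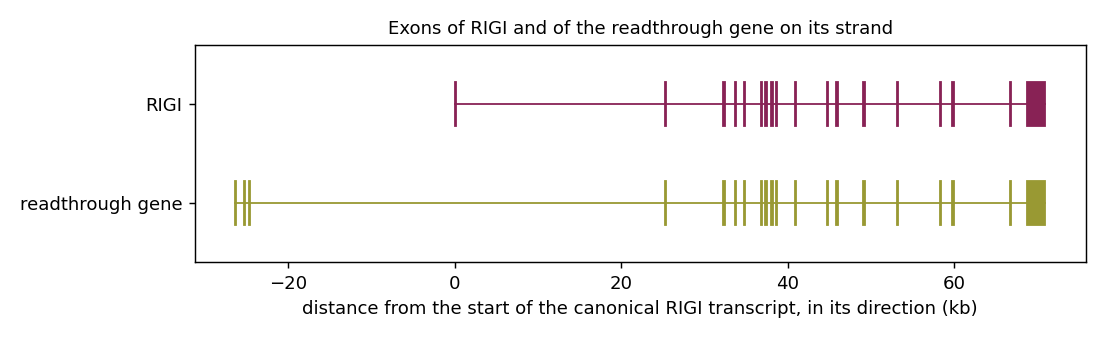
Exons of the canonical RIGI transcript (upper row, 18 exons) and of the readthrough gene on the same strand (lower row, 20 exons), as boxes along the distance in kb from the start of the RIGI transcript in its direction. The first RIGI exon alone has no counterpart below it, and the other 21 unshared nt lie at the end of the last exon, too few to see at this scale.

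DHX58, the regulator of the other RIG-I family members (ENSG00000108771, chromosome 17, 42101404 to 42112714, minus strand, 14 exons), had the lowest share of its control level. Its raw counts were 15, 24 and 24 in the shControl replicates and 1, 2 and 4 in the shSQLE replicates. Normalized, they were 17.3, 21.7 and 23.5 against 0.979, 1.97 and 4.11. All control libraries lay well above all shSQLE libraries, and shSQLE replicates 1 and 2 were at or under the floor of 3 counts. The means were 20.9 ± 3.20 and 2.35 ± 1.6 (SD, n = 3 each), with a log2 fold change of -3.10 (SE 0.45, 95% interval -4.14 to -2.07, adjusted p = 0.0110), whose size is poorly determined at such counts. The summed counts, 63 against 7, gave a shSQLE level of 11% of the shControl level (exact 95% interval 4.27% to 24.1%, counting error only). The call was lost without shSQLE replicate 1 or 2 (adjusted p = 0.0679 and 0.0761), and the log2 fold change nearest to 0 was -2.74, without replicate 1. RIGI and DHX58 passed the filter on low counts only with their shControl libraries, so that their being tested already depended on a level in that group, and the stricter filter of at least 10 counts in every library leaves out both.

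**Figure D2:**
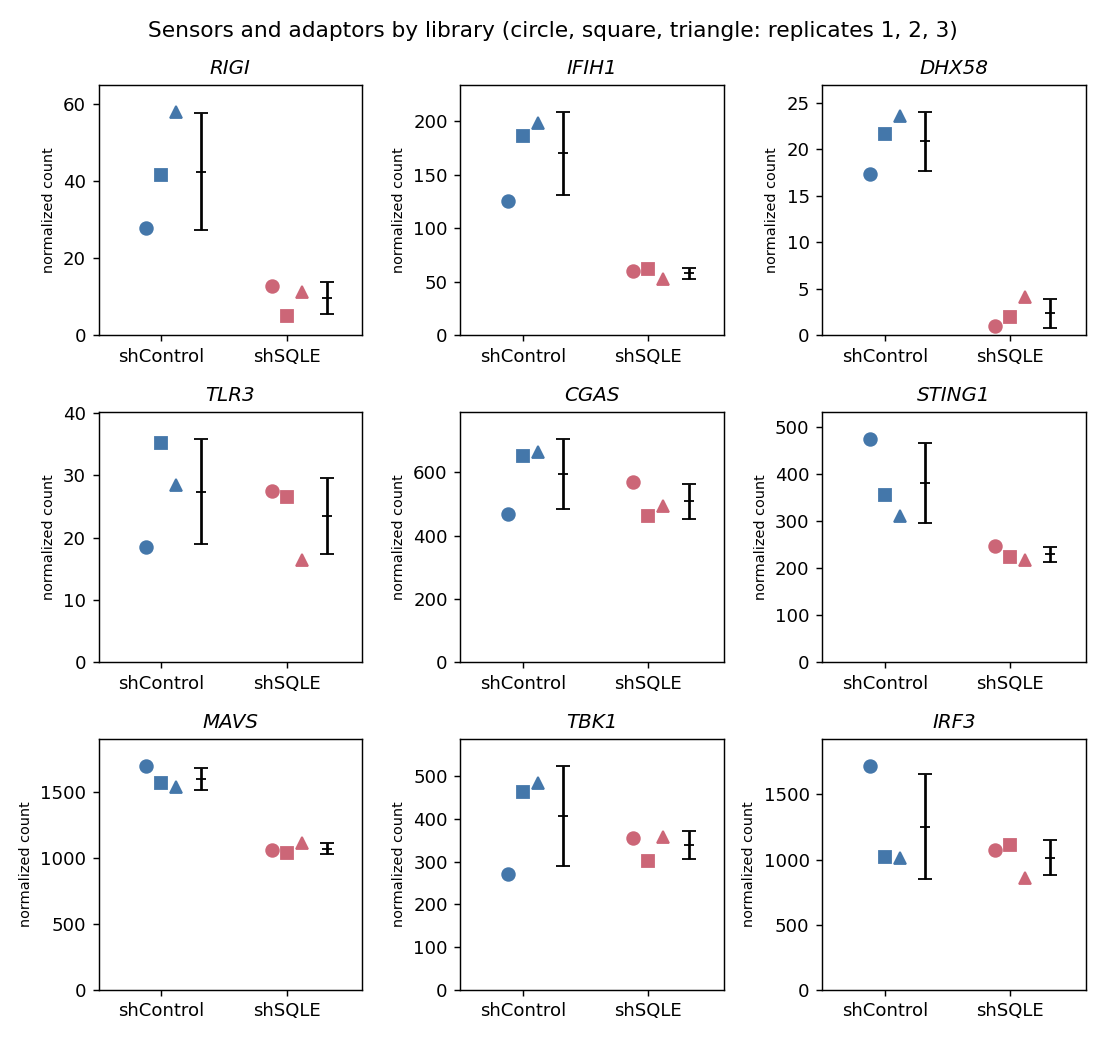
Normalized counts (vertical axes, from 0) of the 9 genes with any count, by group, with circles, squares and triangles for replicates 1, 2 and 3 and bars for the mean ± SD over 3 libraries. The shSQLE points lie below all shControl points for RIGI, IFIH1, DHX58, STING1 and MAVS, and the groups overlap for TLR3, CGAS, TBK1 and IRF3, where shControl replicate 1 is the lowest control of the first 3 and the highest of IRF3.

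The other receptors of double-stranded and Z-form nucleic acid gave no call. TLR3, the endosomal receptor of double-stranded RNA (ENSG00000164342, chromosome 4, 186068911 to 186088073, plus strand, 5 exons), had 18.5, 35.3 and 28.4 normalized counts in the shControl libraries and 27.4, 26.6 and 16.4 in those of shSQLE. The groups overlapped, and each held a library under 20 counts. The log2 fold change was -0.23 (SE 0.32, adjusted p = 0.823), and its 95% interval, -0.98 to 0.51, leaves room for changes in either direction. ZBP1, the sensor of Z-form RNA and DNA (ENSG00000124256, chromosome 20, 57603846 to 57620576, minus strand), had 0 counts in all 6 libraries. A count of 0 allows up to 3 counts, or 0.208 to 0.246 CPM (counts scaled to the library total) depending on the library, so ZBP1 was not detectable at this depth and no fold change can be given.

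The DNA-sensing pair differed in its values. CGAS, which makes the second messenger cGAMP from cytosolic DNA (ENSG00000164430, chromosome 6, 73413515 to 73452297, minus strand, 5 exons), had 468, 653 and 664 normalized counts in the control libraries. The shSQLE libraries had 568, 463 and 492. The lowest control, replicate 1, lay within the range of the shSQLE libraries, and the other controls lay above that range. The means were 595 ± 110 and 508 ± 54.0 (SD, n = 3 each), and the log2 fold change of -0.23 (SE 0.17, 95% interval -0.62 to 0.16) was not past the threshold (adjusted p = 0.625). Without shControl replicate 1 it was -0.37 and past it (adjusted p = 0.0154). CGAS shares 180 exonic nt with DDX43 on the opposite strand, which had at most 1 count in any library.

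STING1, the adaptor that cGAMP binds at the endoplasmic reticulum (ENSG00000184584, chromosome 5, 139475533 to 139482935, minus strand, 8 exons), had 475, 356 and 312 normalized counts in the shControl replicates and 248, 225 and 217 in the shSQLE replicates. The groups did not overlap, and here shControl replicate 1 was the highest of the controls. The means were 381 ± 84.1 and 230 ± 16.0 (SD, n = 3 each), and the log2 fold change was -0.73 (SE 0.18, 95% interval -1.14 to -0.32). The unadjusted p was 0.00361 and the adjusted p 0.0814, so STING1 was not called. It was past the threshold with DESeq2 (adjusted p = 0.0150), with library size alone as the scale (0.0465) and without shControl replicate 1 (0.00491, log2 fold change -0.54), and over all alternatives the adjusted p ran from 0.00491 to 0.321.

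Of the genes on which the sensors converge, MAVS was lower in shSQLE and TBK1 and IRF3 were not called. MAVS, the mitochondrial adaptor of RIG-I and MDA5 (ENSG00000088888, chromosome 20, 3846799 to 3876123, plus strand, 7 exons), had 1694, 1567 and 1537 normalized counts in the shControl replicates and 1059, 1035 and 1114 in the shSQLE replicates. Both groups were tight and did not overlap. The means were 1599 ± 83.3 and 1069 ± 40.7 (SD, n = 3 each), so that shSQLE held 66.8% of the shControl level, with a log2 fold change of -0.58 (SE 0.10, 95% interval -0.82 to -0.34, adjusted p = 0.0240). The size hardly moved when single libraries were left out (-0.60 to -0.54), but the call was lost without shControl replicate 2 or 3 (adjusted p = 0.109 and 0.0795) and without shSQLE replicate 1, 2 or 3 (0.171, 0.179 and 0.125), and it held without shControl replicate 1 (0.000487).

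TBK1, the kinase that phosphorylates IRF3 (ENSG00000183735, chromosome 12, 64452090 to 64502114, plus strand, 21 exons), had 271, 463 and 486 normalized counts in the shControl replicates and 356, 301 and 359 in the shSQLE replicates. shControl replicate 1 was the lowest of all 6 libraries and the other controls were the highest. The log2 fold change was -0.27 (SE 0.22, 95% interval -0.78 to 0.25, adjusted p = 0.675), and without that library it was -0.49 (adjusted p = 0.00569). IRF3, the transcription factor at the end of the cascade (ENSG00000126456, chromosome 19, 49659569 to 49665875, minus strand, 8 exons), had 1718, 1021 and 1014 normalized counts in the shControl replicates and 1073, 1115 and 859 in the shSQLE replicates. Here shControl replicate 1 was the highest of all 6, and the remaining controls lay within the shSQLE range. The log2 fold change was -0.30 (SE 0.22, 95% interval -0.82 to 0.22, adjusted p = 0.635), and without that library it was -0.0015 (adjusted p = 0.993). IRF3 shares 734 exonic nt with BCL2L12 on the opposite strand, whose normalized counts were 692, 466 and 417 in the shControl replicates and 626, 662 and 501 in the shSQLE replicates. Whether strand was used in the counting is not given in the sources used here.

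**Figure D3:**
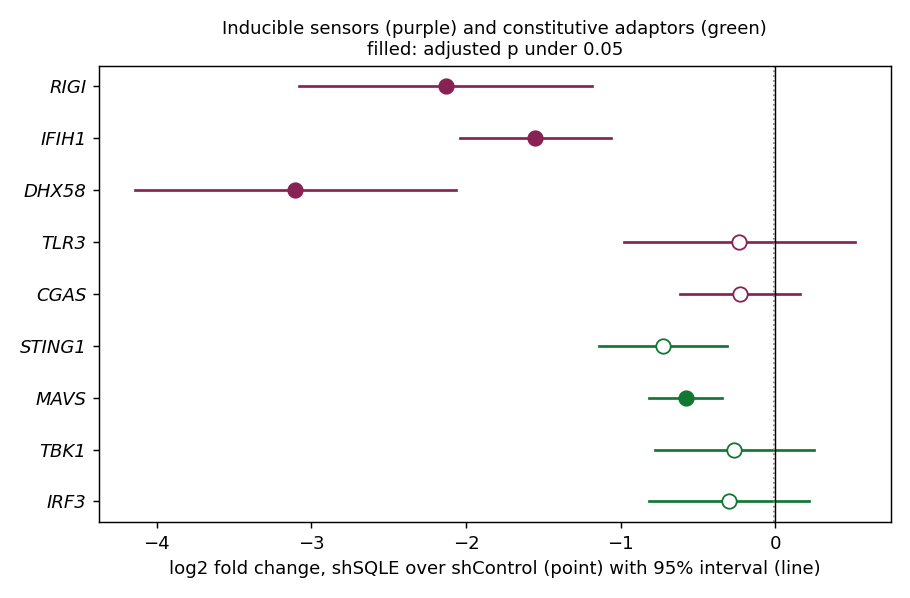
Log2 fold change of shSQLE over shControl (horizontal axis) with its 95% interval for the 9 genes tested, inducible sensors in purple and constitutive adaptors in green, filled where the adjusted p was under 0.05. The filled points are RIGI at -2.13, IFIH1 at -1.55, DHX58 at -3.10 and MAVS at -0.58, and the intervals of TLR3, CGAS, TBK1 and IRF3 cross 0.

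Of the 6 inducible sensors, 3 were lower past the adjusted p (RIGI, IFIH1, DHX58), 2 were tested without a call (TLR3, CGAS) and ZBP1 had no counts. Of the 4 constitutive adaptors, 1 was lower past it (MAVS) and 3 were not (STING1, TBK1, IRF3). The median log2 fold change was -1.55 over the 5 inducible sensors tested and -0.44 over the 4 adaptors, against -0.0094 over all 12450 genes tested. No gene of either class was called higher, but calls were mostly lower among all genes tested too, with 354 lower and 46 higher. RIGI and DHX58, which passed the filter only with shControl, shape the first median: with the stricter filter, which leaves them out, it was -0.24 over 3 inducible sensors, with 1 called, against -0.44 over the 4 adaptors. The difference between the classes was not tested, and TLR3 and CGAS lay nearer 0 than STING1 and MAVS did. With CGAS and STING1 left out of both classes, the counts of calls remained 3 and 1. Across all genes tested, 3.21% passed the adjusted p in either direction. In 5 of the 9 genes tested the highest shSQLE library lay under the lowest shControl library, against 12.1% of all genes tested. The study's rule for differential expression adds a minimum size, the mean of the absolute log2 fold changes plus 2 of their SD. The study took it from DESeq2, and here it was applied to the edgeR values, which set it at 0.97. So applied, it keeps RIGI, IFIH1 and DHX58 and leaves out MAVS, and 2.18% of all genes tested meet it.

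Per kilobase of the canonical transcript, the adaptors were more abundant than the RNA sensors, an order that depends on the length used. All annotated exons of TBK1 cover 14716 nt, against 3022 nt in its canonical transcript. For IRF3 these lengths are 3794 and 1595 nt, for IFIH1 5225 and 3581 nt, and for MAVS 11771 and 11731 nt. How many counts came from exons outside the canonical transcripts, or for IRF3 from the exonic bases shared with BCL2L12, was not tested. In shControl, IRF3 had the highest level, 784 ± 254 normalized counts per kb (SD, n = 3). CGAS (186 ± 34.5), STING1 (176 ± 38.8), MAVS (136 ± 7.10) and TBK1 (135 ± 39.0) followed. The means of CGAS and STING1 lay within each other's range, as did those of MAVS and TBK1. STING1 and MAVS overlapped only narrowly, with the lowest STING1 library at 143.8 and the highest MAVS library at 144.4. IFIH1 had 47.5 ± 10.8, below the lowest TBK1 library. RIGI (9.16 ± 3.26), DHX58 (8.05 ± 1.23) and TLR3 (4.56 ± 1.40) had the lowest levels above 0, with RIGI and DHX58 overlapping. The place of RIGI rests on its full length. Suppose reads on the shared bases had not been counted and all its counts came from the 157 unshared nt of the canonical transcript. Its level would then be 270 normalized counts per kb in shControl and 61.5 in shSQLE. The shControl value lies above that of CGAS, but it is an upper limit, since all annotated RIGI exons together cover 10345 nt. In shSQLE, IRF3 remained highest at 637 ± 86.0 and IFIH1 stood at 16.2 ± 1.41. The order of the sensors with low counts was different there, with TLR3 at 3.90 ± 1.02, RIGI at 2.09 ± 0.90 and DHX58 at 0.908 ± 0.618 normalized counts per kb, and TLR3 overlapped with RIGI by a narrow margin.

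**Figure D4:**
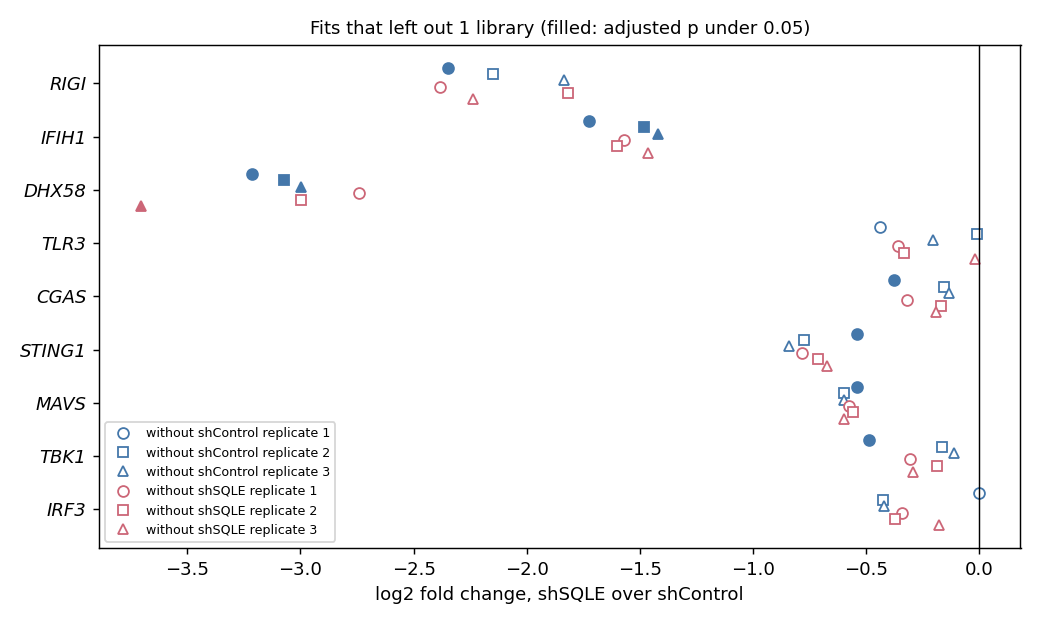
Log2 fold change of shSQLE over shControl (horizontal axis) for the 9 genes tested in the 6 fits that each left out 1 library, with blue for a shControl and red for a shSQLE library left out, circles, squares and triangles for replicates 1, 2 and 3, and filled marks for an adjusted p under 0.05. DHX58 stays between -3.71 and -2.74 and IFIH1 between -1.72 and -1.42, whereas IRF3 reaches -0.0015 without shControl replicate 1.

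The rest of the pathway was taken as 130 listed genes, of which 99 were tested. In shSQLE 63 had a lower and 36 a higher value, with a median log2 fold change of -0.05, and 7 were lower and 0 higher past the adjusted p. Of all 12450 genes tested, 354 (2.84%) were lower and 46 higher past it. Among the 99, the share with a lower value was 63.6%, against 51.57% of all genes tested, and 19 genes (19.2%) had an unadjusted p under 0.05, against 14.7% of all genes tested. Without shControl replicate 1, 25 were lower and 11 higher past the adjusted p (36.4%, against 33.9% of all genes in that fit). Of the 24 other sensors tested, 5 were lower. IFIT3, IFIT1 and IFIT2, interferon-induced proteins of which IFIT1 binds viral RNA ends, fell from 1392 ± 54.9 to 308 ± 48.2, from 512 ± 23.9 to 133 ± 17.3 and from 896 ± 182 to 220 ± 12.1 normalized counts (SD, n = 3 each). Their log2 fold changes were -2.17, -1.94 and -2.03 (SE 0.14, 0.14 and 0.18; adjusted p = 0.000548, 0.000696 and 0.00139). IFIT5, of the same family, was at -0.16 (adjusted p = 0.801), and without shControl replicate 1 at -0.37 (adjusted p = 0.0136). IFIT2 and IFIT3 share 65 and 94 exonic nt with LIPA on the opposite strand.

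The helicases DDX60 and DDX60L were lower as well. DDX60 fell from 584 ± 186 to 126 ± 16.9 normalized counts (log2 fold change -2.22, SE 0.26, adjusted p = 0.00464) and DDX60L from 316 ± 90.8 to 100.2 ± 19.6 (-1.66, SE 0.26, adjusted p = 0.0147). With each library left out in turn, DDX60 was called in 6 fits of 6 and DDX60L in 2, the latter not past the threshold without shSQLE replicate 1, 2 or 3 (adjusted p = 0.0879, 0.0614 and 0.0961) nor without the second control library (0.0560). These genes are close relatives, so their split of shared reads is less certain.

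Of the 28 other adaptors, kinases and factors tested, none was called and 2 had an unadjusted p under 0.05. These were MLKL, the effector of necroptosis downstream of ZBP1, at -0.40 (adjusted p = 0.140), and IRF5, a transcription factor of the IRF3 family, at -0.95 (adjusted p = 0.262). Without shControl replicate 1, 5 of these 28 were lower and 1 higher past the adjusted p, MLKL among the former (adjusted p = 0.0147) and IRF5 not (0.169). Of the 32 activators and inhibitors, 2 were lower. ZC3HAV1, an antiviral zinc finger protein whose short form stimulates RIG-I, fell from 2441 ± 178 to 883 ± 52.3 normalized counts (log2 fold change -1.47, SE 0.11, adjusted p = 0.000838). TNFAIP3 (A20), an inhibitor of NF-κB and interferon signalling, fell from 555 ± 114 to 206 ± 23.4 (-1.43, SE 0.19, adjusted p = 0.00711). ZC3HAV1 was called in 6 such fits of 6 and TNFAIP3 in 4, the latter losing its call without shSQLE replicate 1 or 2 (adjusted p = 0.0632 and 0.0545). TNFAIP3 shares 95 exonic nt with WAKMAR2 on the opposite strand. Of the 15 nucleases and editors that limit self nucleic acids, none was called and 2 had an unadjusted p under 0.05, SAMHD1 at -0.42 (adjusted p = 0.157) and ENPP1, which degrades cGAMP, at -0.50 (adjusted p = 0.225). Without shControl replicate 1, 2 of these 15 were lower, SAMHD1 and ENPP1 (adjusted p = 0.00642 and 0.00863), and 2 were higher, and the median of the list was 0.09. In the same fit 9 other sensors were lower and 2 higher (45.8% called), as were 9 and 6 activators or inhibitors (46.9%). Of all genes in that fit 33.9% were called, and the adaptor list (21.4%) and the nuclease list (26.7%) lay under that share. The differences between these shares were not tested. The medians of the 4 lists, -0.04, -0.08, -0.04 and -0.0028, lay near the median of all genes.

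**Figure D5:**
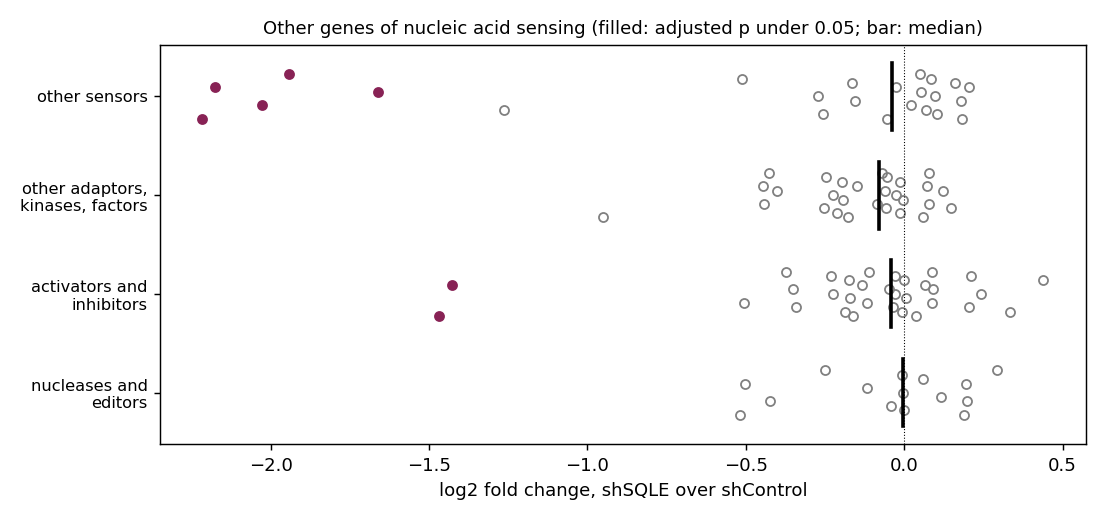
Log2 fold change of shSQLE over shControl (horizontal axis) for the 99 other pathway genes tested, by list, with a bar for the median of each list and filled marks for an adjusted p under 0.05. The filled marks are 5 other sensors between -2.22 and -1.66 and 2 activators or inhibitors at -1.47 and -1.43, while the medians lie between -0.08 and -0.0028.

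The products of the cascade were near the limit of detection. Of 20 type I and type III interferon genes in the table, 14 had no count in any library and none passed the filter. IFNL1, a type III interferon, had 13, 10 and 9 counts in the shControl replicates and 0 in each shSQLE library, which makes it at least 3.66-fold lower in shSQLE (against a floor of 3 counts per library). With no filter on low counts its adjusted p was 0.0209, and 0.000918 with DESeq2. IFNB1, an interferon gene that IRF3 induces, had 6, 4 and 2 counts in the shControl replicates and 0, 0 and 1 in the shSQLE replicates. The sums, 12 against 1, gave 8.28% with an exact 95% interval of 0.194% to 56.0%, and the adjusted p with no filter was 0.255. IFNE, an interferon of epithelia, had 5, 7 and 4 against 3, 4 and 7 counts (adjusted p = 0.924 with no filter).

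Over the 6 libraries, the genes whose log2 CPM ran most like those of RIGI were KLHDC2, DSEL and MAST4 (Pearson r = 0.992 each), XKRX (0.990) and TMTC1 (0.989). Among the genes described here the r with RIGI was 0.923 for IFIH1, 0.902 for DHX58, 0.877 for MAVS, 0.749 for CGAS, 0.699 for STING1, 0.644 for TBK1, 0.323 for TLR3 and 0.127 for IRF3. The points share their group, their library and its depth, so these values describe the 6 libraries and were not tested.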

How the data were processed

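Per the labels and the submitters' processing notes, the authors used fastp 0.20.0 for trimming, STAR 2.7.9a for alignment (hg38) and featureCounts 2.0 for counting. What they deposited are raw counts for each gene, not normalized. The annotation, the use of strand and the treatment of shared reads are not given in the sources used here. Genes were annotated with GENCODE v44.

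Counts were tested with edgeR 4.0.16 and limma 3.58.1 in R 4.3.3: filterByExpr (minimum count 10) left 12450 of the 19937 genes (3942 of the 19937 had no counts), and a quasi-likelihood test with TMM factors and the group as its term compared 3 shSQLE with 3 shControl libraries. P-values were adjusted over all genes tested (Benjamini-Hochberg), and a gene was called at an adjusted p under 0.05. Normalized counts are counts scaled to the mean of the effective library sizes. Totals of 12212378 to 14393292 counts limit the precision for rare genes, and 3 counts per library served as the floor. The alternatives were DESeq2 1.42.0, other size factors, library size alone, 2 other filters, the replicate number as a block, omission of each library, the study's fold rule on the edgeR values and other classes.

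The members and lists were chosen with earlier results of these data known. Named genes are SQLE, the 10 members, in each pathway list the called genes (up to 6 with the smallest p; otherwise the 2 with the smallest p), interferons with over 3 counts in any library, and the 5 genes most correlated with RIGI. IFIT5, the overlapping genes and the markers were named besides.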

Additional observations from a re-analysis of the deposited data

How the results depend on the processing

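Of 106 values of single genes under the alternatives, 85 kept their direction and their side of the threshold, 16 lost the call, 5 gained it and 0 changed sign. The number of all genes called was 400, and 714 with DESeq2; leaving out 1 library moved it between 109 and 4264, the latter without shControl replicate 1. Of the 10 sensors and adaptors 4 were called, and 2 with at least 10 counts in every library, a filter that leaves out RIGI and DHX58, puts the inducible sensors at 1 instead of 3 and moves the median log2 fold change from -0.58 to -0.30. Constitutive adaptors called were 1, but 2 with DESeq2 or library size alone, where STING1 joined, and 0 under the study's fold rule. Leaving out 1 library gave 0 to 7 of the 10 genes, 0 to 4 inducible sensors, 0 to 3 constitutive adaptors, 5 to 36 other pathway genes and a median of -0.60 to -0.54; the 7 and the 36 came without shControl replicate 1, and 0 of the 10 without shSQLE replicate 1 or 2. With no filter on low counts 1 interferon gene, IFNL1, was called. Apart from the genes left out by the stricter filter, the cause was not tested.

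The replicate numbers share only a name: the deviations of same-numbered libraries correlated at 0.138, -0.433 and 0.543, and shControl replicate 1 correlated best with shSQLE replicate 2 (0.542). With the replicate number as a block, 396 genes, 3 of the 10 genes, 3 inducible sensors, 0 constitutive adaptors and 7 other pathway genes were called, since MAVS was at an adjusted p of 0.0623.

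Counts of 1 to 4 for DHX58 in shSQLE, and of 13 or fewer for RIGI there, limit the precision of both fold changes, and spread between cultures could not be measured.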
